A study of Homo sapiens with 6 samples.

Results

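The genes described are the receptors, ligands and one inhibitor of epidermal growth factor (EGF) signalling, taken by gene symbol from the deposited count table. They are 10 of the 30947 genes in that table, namely the receptor genes EGFR, ERBB2 and ERBB3, the ligand genes EREG, AREG, HBEGF, TGFA, BTC and EPGN, and the inhibitor gene ERRFI1. They were measured by RNA sequencing of total RNA from Cal27 cells, which derive from a human oral squamous cell carcinoma. There were 3 libraries from cells with lentiviral knockdown of DAZAP1, which encodes a relative of the hnRNP proteins that binds RNA, and 3 negative control libraries. The labels call the control an empty vector in one place and a negative control sequence in another, and they do not say whether the libraries of a group came from separate cultures, infections or clones. The comparison asks how expression differs in this line when DAZAP1 is reduced.

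EGFR is a membrane tyrosine kinase that is activated when a ligand brings a pair of receptors together. ERBB2 binds no known ligand and acts as a partner, while ERBB3 binds neuregulins, has a weak kinase and passes its signal on through a partner. The ligands are made as membrane-anchored precursors and are set free by metalloproteinases of the ADAM family. ERRFI1, also called MIG6, binds the kinase domain of the active receptors and blocks it. In squamous epithelium and its carcinomas EGFR is usually abundant, and its signal runs mainly through the RAS-ERK and PI3K-AKT cascades.

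The 4 ligand genes with a clear level in this line are shown by the 250 bases upstream of their RefSeq transcript start. They were chosen because EREG rose while the other 3 were lower in the knockdown. For AREG the difference was small, and it passed the test described below in only 8 of 17 alternative settings. The windows are on GRCh38.p14, at chr4:74364895-74365144 on the plus strand for EREG, chr4:74444886-74445135 on the plus strand for AREG, chr5:140346604-140346853 on the minus strand for HBEGF and chr2:70553827-70554076 on the minus strand for TGFA. Each is written 5′ to 3′ and ends at the base before the start. Capitals mark matches on either strand to TATAAA, the letters of the TATA box, to TGACGTCA, the cyclic AMP response element, to TGANTCA, the sequence bound by AP-1 factors, or to GGGCGG, the GC box. The start used for TGFA lies 367 bases inside the 5′ end of the gene in the deposited table, and the other 3 starts are at that end.
EREG: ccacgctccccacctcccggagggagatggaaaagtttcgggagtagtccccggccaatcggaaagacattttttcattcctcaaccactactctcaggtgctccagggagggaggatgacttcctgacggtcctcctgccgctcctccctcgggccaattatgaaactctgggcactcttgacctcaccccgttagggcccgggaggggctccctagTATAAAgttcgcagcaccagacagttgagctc
AREG: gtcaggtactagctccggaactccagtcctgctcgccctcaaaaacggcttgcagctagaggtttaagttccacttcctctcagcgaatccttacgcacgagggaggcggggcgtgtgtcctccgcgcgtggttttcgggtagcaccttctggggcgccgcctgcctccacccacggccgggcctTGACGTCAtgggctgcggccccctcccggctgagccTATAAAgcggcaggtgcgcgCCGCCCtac
HBEGF: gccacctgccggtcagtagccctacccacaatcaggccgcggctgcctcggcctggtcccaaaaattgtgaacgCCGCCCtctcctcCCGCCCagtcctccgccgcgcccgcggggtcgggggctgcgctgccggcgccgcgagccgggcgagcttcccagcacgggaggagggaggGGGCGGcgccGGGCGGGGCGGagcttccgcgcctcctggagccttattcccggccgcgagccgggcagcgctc
TGFA: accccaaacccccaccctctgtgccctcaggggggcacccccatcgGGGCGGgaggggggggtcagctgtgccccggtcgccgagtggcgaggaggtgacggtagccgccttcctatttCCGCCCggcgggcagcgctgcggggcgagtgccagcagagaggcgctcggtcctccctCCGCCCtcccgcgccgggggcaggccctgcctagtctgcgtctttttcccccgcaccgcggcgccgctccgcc
The letters TATAAA lay 32 to 27 bases before the start of EREG and 29 to 24 bases before that of AREG, and in neither HBEGF nor TGFA. TGACGTCA was found 65 to 58 bases before the start of AREG and in none of the other 3. GGGCGG had 5 matches in HBEGF, of which 2 share bases, 3 in TGFA, 1 in AREG and 0 in EREG. None of the 4 windows held TGANTCA. TGFA has a second RefSeq start, 747 bases inside the 5′ end of the gene. Its window, not printed, held 0 matches to GGGCGG and none to the other letters. Over all 35116 RefSeq windows of this length, TATAAA or its reverse complement was found in 10.7%, TGACGTCA in 1.65%, TGANTCA in 6.57% and GGGCGG in 42.6%. These matches describe letters only. RefSeq windows were found for 9 of the 10 genes.

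The libraries held 16333542 to 17815862 counts in the knockdown and 18547236 to 18955230 in the control. DAZAP1 had 73.5, 77.7 and 67.4 CPM (counts relative to the library total, scaled by the TMM method) in the knockdown libraries and 262, 277.5 and 256.5 CPM in the control libraries, so the targeted gene was lower in each. All 9 listed markers of epithelium, not all of them particular to squamous epithelium, were measured. They summed to 4390 to 4430 CPM in the knockdown and 3440 to 3600 CPM in the control. KRT5 alone had 2143 CPM in the knockdown and 1504 CPM in the control. Of the 9, 5 rose and 2 fell, where the test described below called 26.9% of all genes higher and 27.4% lower. PERP fell, as did EPCAM, whose groups overlapped, and TP63 and DSG3 did not pass. Markers of other cell types summed to 2.18 to 2.94 against 0.694 to 1.58 CPM for leukocytes, 16 to 17.3 against 8.85 to 12.2 CPM for fibroblasts, 46.3 to 51.7 against 13.8 to 16.7 CPM for endothelium, and 1.15 to 1.27 against 1.44 to 2.89 CPM for neurons, knockdown first. The leukocyte gene PTPRC had 0, 0 and 1 counts in the knockdown and 2, 0 and 0 in the control, and the endothelial gene PECAM1 4, 6 and 10 against 0, 4 and 0. The listed genes COL3A1, DCN and KDR had no entry in the deposited counts. Most of the leukocyte sum was CD14, at 2.27 CPM in the knockdown and 0.899 CPM in the control. Most of the fibroblast sum was COL1A1, at 14.4 CPM in the knockdown and 9.35 CPM in the control. The endothelial sum came almost wholly from CDH5, which rose to 48.3 ± 3.26 CPM in the knockdown, against 14.4 ± 1.58 CPM in the control (SD, n = 3 each). The part of these markers in the changes below was not tested, and in bulk RNA fewer cells and less RNA per cell cannot be told apart.

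Between the 10 genes the changes were mixed, with 5 called higher, 3 called lower and 2 not past the test when knockdown was compared with control. All 10 passed the filter on low counts. The test was edgeR's quasi-likelihood test with Benjamini-Hochberg adjustment over all 15374 genes tested, at an adjusted p under 0.05. The same test called 54.2% of all genes, 26.9% higher and 27.4% lower, so that 8 calls among 10 genes stand against a background in which most genes were called. The groups did not overlap for 9 of the 10 genes, and for 58.9% of all genes tested. The median log2 fold change was 0.208 over the 10 genes and 0.002 over all genes tested. In every case a fold change is knockdown over control, on the log2 scale, with its standard error (SE).

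**Figure D1:**
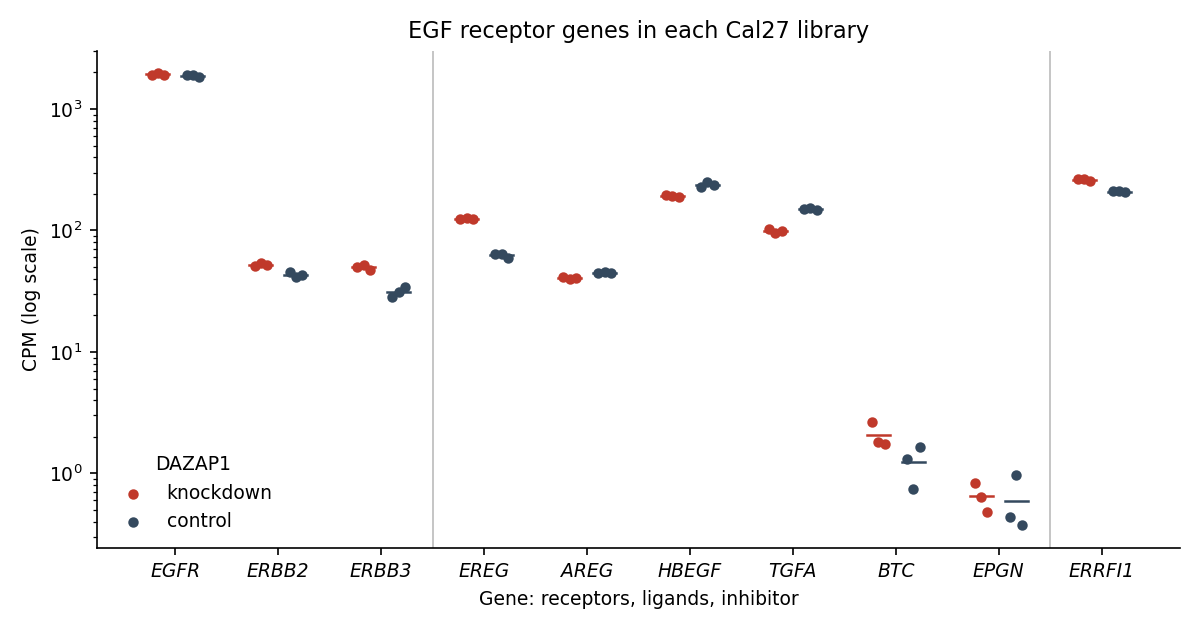
Level of each gene in CPM on a log axis, with 1 point per library and a line at the mean of 3 libraries, knockdown in red at the left and control in blue at the right of each gene. EREG shows the widest gap among the genes above 5 CPM, and the BTC and EPGN points are low and scattered.

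EGFR was by far the most abundant receptor transcript, and its level hardly differed between the groups. EGFR (ENSG00000146648, chromosome 7, 55019017 to 55211628, plus strand, GRCh38.p13 as all gene positions here) had 1907, 1967 and 1903 CPM in the knockdown libraries and 1894, 1890 and 1834 CPM in the control libraries. All 3 knockdown values lay above the control values, but the lowest of the one group and the highest of the other were close. It averaged 1926 ± 35.6 CPM in the knockdown and 1873 ± 33.5 CPM in the control (SD, n = 3 each), and the change of 0.04 ± 0.019 SE on the log2 scale did not pass (adjusted p = 0.071). The 95% interval of the fold change ran from an increase of 0.127% to one of 5.65%, or 0.079 on the log2 scale. It holds for TMM scaling and is not adjusted over genes, so it leaves out no change although the adjusted p did not pass. With upper-quartile factors the estimate itself, at 0.089, lay above that upper end. The call turned on the settings, with EGFR past the threshold in 7 of 17 alternatives. It passed, for example, with upper-quartile factors at 0.09 (adjusted p = 8.73e-05) and with library size alone at 0.08 (adjusted p = 0.000571), under which the median of all genes also moved up, to 0.051 and 0.038. Of all genes tested, 91.2% had a larger absolute change. The antisense gene EGFR-AS1 overlaps EGFR and had 3.93 CPM in the knockdown and 4.46 CPM in the control, far below EGFR.

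The other receptors rose, at much lower levels. ERBB3 (ENSG00000065361, chromosome 12, 56076799 to 56103505, plus strand), the receptor of neuregulins, had 50.1, 51.5 and 47.1 CPM in the knockdown libraries and 28.6, 30.9 and 34.4 CPM in the control libraries. The groups lay well apart, and the control libraries were the more scattered. It averaged 49.6 ± 2.27 CPM in the knockdown and 31.3 ± 2.93 CPM in the control (SD, n = 3 each). On the log2 scale it rose by 0.66 ± 0.061 SE (adjusted p = 1.48e-15), or by 58.5%. ERBB2 (ENSG00000141736, chromosome 17, 39687914 to 39730426, plus strand), the partner with no known ligand, had 50.7, 54.2 and 51.8 CPM in the knockdown libraries and 45.8, 41.4 and 42.7 CPM in the control libraries. It rose by 0.27 ± 0.054 SE on the log2 scale (adjusted p = 1.89e-05), with no overlap between the groups. Both ends of ERBB2 overlap genes on the other strand, PGAP3 (10.8 CPM in the knockdown and 7.81 CPM in the control, higher) and MIEN1 (12.2 CPM and 17.9 CPM, lower), and the strandedness of the counts is not given, so reads of ERBB2 and of these genes cannot be told apart there.

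Among the ligands EREG stood out, rising while the other abundant ligands were lower. EREG (ENSG00000124882, chromosome 4, 74365145 to 74388749, plus strand) encodes epiregulin, which binds EGFR and ERBB4. Its level was 125, 126 and 123 CPM in the knockdown libraries and 63.9, 64.1 and 59.1 CPM in the control libraries. Every knockdown library was close to the others and near double the control. It averaged 124.7 ± 1.34 CPM in the knockdown and 62.4 ± 2.84 CPM in the control (SD, n = 3 each). On the log2 scale it rose by 1.00 ± 0.041 SE (adjusted p = 1.01e-33), and the 95% interval of the increase ran from 88.9% to 112%. Only 7.16% of all genes tested had a larger absolute change, and EREG had the largest of the 10 genes. Without control replicate 3 BTC was larger, at 1.01 against 0.96 for EREG.

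TGFA and HBEGF, which had the highest CPM of the 6 ligands in the control, both fell. TGFA (ENSG00000163235, chromosome 2, 70447284 to 70554193, minus strand), which encodes transforming growth factor alpha, had 103, 95.4 and 98.8 CPM in the knockdown libraries and 151, 152 and 147 CPM in the control libraries. The groups were far apart relative to their spread, and the log2 change was −0.60 ± 0.036 SE (adjusted p = 2.79e-24), or −33.8%. HBEGF (ENSG00000113070, chromosome 5, 140332843 to 140346603, minus strand), the heparin-binding ligand of EGFR and ERBB4, had 196, 194 and 188 CPM in the knockdown libraries and 228, 250.1 and 239 CPM in the control libraries. The change was smaller than in TGFA, at −0.31 ± 0.030 SE (adjusted p = 1.87e-14), or −19.3%, again with no overlap.

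AREG, BTC and EPGN gave weaker results. AREG (ENSG00000109321, chromosome 4, 74445136 to 74455005, plus strand) encodes amphiregulin, a ligand of EGFR alone, and had 41.8, 39.8 and 40.6 CPM in the knockdown libraries and 44.4, 45.2 and 44.4 CPM in the control libraries. It was lower in 3 of 3 knockdown libraries and passed narrowly at −0.13 ± 0.056 SE (adjusted p = 0.0382). In 8 of 17 alternatives it stayed past the threshold. The call was lost with DESeq2 (−0.14, adjusted p = 0.128), with no filter on low counts (adjusted p = 0.082), with upper-quartile factors (adjusted p = 0.205) and with library size alone (adjusted p = 0.138). It was also lost when any single library other than knockdown replicate 1 was left out, at −0.141 to −0.117 (adjusted p of 0.0508 to 0.123). Over all of these the adjusted p ran from 0.0214 to 0.205.

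BTC (ENSG00000174808, chromosome 4, 74744759 to 74794523, minus strand), which encodes betacellulin, had only 48, 31 and 29 counts in the knockdown libraries and 24, 14 and 31 in the control libraries. It rose by 0.75 ± 0.304 SE on the log2 scale (adjusted p = 0.0323), with a wide 95% interval of 10.2% to 155%. In CPM the groups did not overlap, at 1.76 to 2.66 in the knockdown and 0.748 to 1.66 in the control, but the nearest values were close. The call was lost without knockdown replicate 1 (0.52, adjusted p = 0.235), without control replicate 2 (0.48, adjusted p = 0.188), with DESeq2 (adjusted p = 0.145) and with limma on log2(FPKM + 0.1) (adjusted p = 0.0575). Over 16 alternatives its adjusted p ran from 0.0109 to 0.235. EPGN (ENSG00000182585, chromosome 4, 74308470 to 74316789, plus strand), which encodes epigen, had 15, 11 and 8 counts in the knockdown libraries and 8, 18 and 7 in the control libraries. The groups overlapped, and at 0.15 ± 0.459 SE (adjusted p = 0.812) a difference was not detectable at this depth, with an interval from −41.3% to 109%.

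ERRFI1 (ENSG00000116285, chromosome 1, 8004404 to 8026309, minus strand), the inhibitor of the receptor kinases, had 266, 264 and 257 CPM in the knockdown libraries and 209, 212 and 207 CPM in the control libraries. It rose by 0.33 ± 0.028 SE on the log2 scale (adjusted p = 6.33e-17), an increase of 25.4%, with the groups clearly separate. The ratio of EGFR to ERRFI1 in FPKM, the deposited level scaled by library total and gene length, was 2.40, 2.49 and 2.48 in the knockdown libraries and 3.02, 2.98 and 2.97 in the control libraries. This ratio was lower in every knockdown library.

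**Figure D2:**
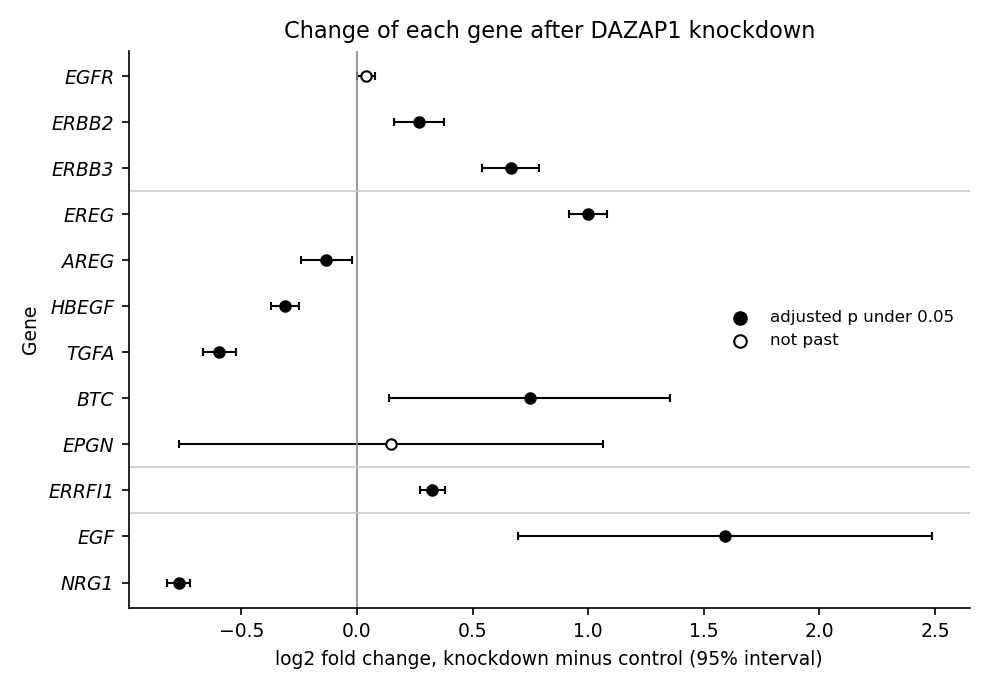
Log2 fold change of each gene, knockdown minus control, with its 95% interval; filled points passed an adjusted p of 0.05 in edgeR and open points did not. Receptors are at the top, then ligands, the inhibitor ERRFI1, and the related ligands EGF and NRG1 at the bottom. EREG lies at 1.00 and TGFA at −0.60, while the intervals of BTC, EPGN and EGF are wide.

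EREG, AREG, BTC and EPGN lie side by side on chromosome 4, within 486.1 kb and with no other gene of the table between them. EREG and AREG are on the same strand and 56.4 kb apart, yet EREG doubled while AREG was at −0.13. The ratio of EREG to AREG in FPKM was 0.860, 0.909 and 0.872 in the knockdown libraries and 0.413, 0.407 and 0.383 in the control libraries. Both windows printed above hold TATAAA at nearly the same distance from the start, and a part of the promoters in this difference was not tested. Of the 3 nearest tested genes on the EPGN side, MTHFD2L, a mitochondrial folate enzyme (−0.56 ± 0.124 SE, adjusted p = 8.27e-05), and the chemokine CXCL2 (−0.42 ± 0.069 SE, adjusted p = 2.42e-07) fell, and CXCL3 was at −0.04 and did not pass. On the BTC side PARM1 (0.78 ± 0.484 SE, adjusted p = 0.17), RCHY1 (0.00) and THAP6 (0.00) did not pass either.

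On the scale per length, TGFA stood lower in the order of the 10 genes in the knockdown than in the control, below both AREG and EREG. In the knockdown libraries the mean FPKM was 155.9 for EGFR, 65.2 for HBEGF, 63.5 for ERRFI1, 25.1 for AREG, 22.1 for EREG, 20.4 for TGFA, 5.12 for ERBB2, 4.29 for ERBB3, 0.791 for BTC and 0.200 for EPGN. In the control libraries it was 147.8 for EGFR, 78.9 for HBEGF, 49.4 for ERRFI1, 30.1 for TGFA, 26.9 for AREG, 10.8 for EREG, 4.15 for ERBB2, 2.64 for ERBB3, 0.461 for BTC and 0.177 for EPGN. EREG and AREG thus stood above TGFA in all 3 knockdown libraries and below it in all 3 control libraries. Neighbours in this order overlapped in their 3 libraries for HBEGF and ERRFI1 in the knockdown and for BTC and EPGN in the control, and for no other pair. EGFR ranked 194th in the knockdown and 220th in the control among the 30947 genes by mean FPKM.

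The summed FPKM of the 6 ligands was 136.8, 133.1 and 131.5 in the knockdown libraries and 143.8, 152.0 and 146.1 in the control libraries. EREG made up 16.2, 16.8 and 16.6% of that sum in the knockdown and 7.69, 7.29 and 6.99% in the control. TGFA made up 15.5, 14.8 and 15.4% against 21.0, 20.1 and 20.2%, and HBEGF 48.5, 49.3 and 48.3% against 52.3, 54.4 and 54.0%, knockdown first. The share of AREG overlapped between the groups, at 18.46 to 19.02% and 17.9 to 18.6%. So the ligand sum was lower in each knockdown library while a larger part of it was EREG. For the receptors, EGFR took 94.2 to 94.4% of the summed FPKM of EGFR, ERBB2 and ERBB3 in the knockdown and 95.4 to 95.8% in the control, and ERBB3 2.49 to 2.65% against 1.54 to 1.91%.

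These levels rest on 1 length per gene, which changes the comparison between genes but not the fold change of any gene. The lengths implied by the deposited values were 12509 bp for EGFR, 10323 bp for ERBB2 and 4918 bp for TGFA, close to the union of all annotated exons in GENCODE release 29 (12521, 10321 and 4963 bp). The implied length was above that union for ERBB3 (11713 against 9039 bp) and EPGN (3300 against 1814 bp). With the length of the GENCODE transcript that has the longest coding sequence instead (9821, 4545 and 985 bp), TGFA had the highest ligand level, at 101.9 in the knockdown and 150.2 in the control, against 81.7 and 98.9 for HBEGF. EREG, at 27.3 in the knockdown and 13.3 in the control, and AREG, at 43.1 and 46.2, then stayed below TGFA in both groups. Their change of order with TGFA was thus not seen with these lengths. The length of TGFA changed most, from 4918 to 985 bp. It went from 5714 to 4619 bp for EREG, 1642 to 956 bp for AREG and 2991 to 2386 bp for HBEGF. Which transcripts these cells make was not tested, so the high TGFA level rests on a short annotated transcript. With these lengths the share of HBEGF in the ligand sum was about equal, at 32.01% in the knockdown and 31.94% in the control. Its lower share in the knockdown was thus no longer seen. EGFR still took 90.8% of the receptor sum in the knockdown and 92.8% in the control. This length was chosen after the data were seen.

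**Figure D3:**
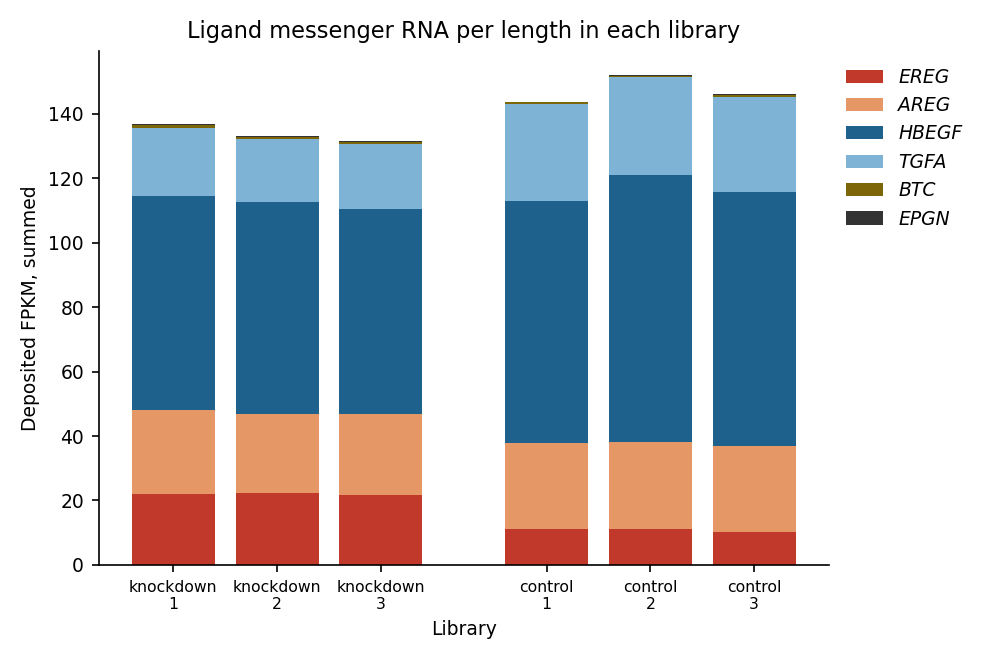
Deposited FPKM of the 6 ligand genes stacked for each library, knockdown libraries at the left and control libraries at the right, on an axis from 0. The totals are 131.5 to 136.8 in the knockdown and 143.8 to 152.0 in the control, with a thicker EREG layer and thinner HBEGF and TGFA layers in the knockdown.

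Of the rest of the family, NRG1 had the most counts. NRG1 (ENSG00000157168), the neuregulin that binds ERBB3 and ERBB4, had 285, 287 and 290.0 CPM in the knockdown libraries and 500.3, 479.6 and 493 CPM in the control libraries. It fell by 0.77 ± 0.025 SE on the log2 scale (adjusted p = 3.47e-40), so that the ligand of ERBB3 was lower where ERBB3 itself was higher. EGF, the founding ligand, had 14, 24 and 24 counts in the knockdown and 10, 2 and 10 in the control, and rose by 1.59 ± 0.448 SE (adjusted p = 0.00183) at a level of 1.21 CPM in the knockdown and 0.396 CPM in the control. ERBB4 (5, 3 and 0 counts in the knockdown against 0, 0 and 1 in the control), NRG2 (3, 3 and 0 against 3, 1 and 4) and NRG4 (4, 1 and 1 against 5, 3 and 4) were too low to be tested. The fourth receptor of the family was thus at the edge of detection at this depth.

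Among 13 genes for the release and delivery of ligands, 6 rose and 7 fell, where 26.9% of all genes tested were called higher and 27.4% lower. The ADAM proteases moved in both directions. ADAM10, which is known to release betacellulin and EGF, rose to 339.7 ± 3.42 CPM in the knockdown, against 195.3 ± 1.86 CPM in the control (SD, n = 3 each; log2 0.80 ± 0.027 SE). ADAM17, which is known to release TGFA, AREG, EREG and HBEGF precursors, rose to 119 ± 3.24 CPM, against 74.5 ± 1.86 CPM in the control (0.68 ± 0.040 SE). TIMP3, an inhibitor of ADAM17, rose to 14.4 ± 1.56 CPM, against 5.99 ± 1.01 CPM in the control (1.26 ± 0.124 SE). NRDC, a peptidase that promotes shedding of HBEGF, fell by 0.24 on the log2 scale. These 4 passed with an adjusted p of 1.1e-09 or less in edgeR. ADAM9 (−0.11 ± 0.025 SE, adjusted p = 7.51e-05), ADAM12 (−0.27 ± 0.056 SE, adjusted p = 2.69e-05) and ADAM15 (−0.18 ± 0.031 SE, adjusted p = 6.17e-07), named after their values were seen, fell in edgeR. ADAM9 had the most counts of the 5 ADAM genes, at 407.3 ± 2.4 CPM in the knockdown and 440.5 ± 15 CPM in the control (SD, n = 3 each). Calls in this list were split between the directions, with a median of −0.084.

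Among 21 genes that restrain or turn over the receptors, 9 were called higher and 6 lower, and 6 missed the threshold (median 0.043). That is 71.4% called, against 54.2% of all genes tested, and the share called lower was near the 27.4% of all genes. LRIG1, a membrane protein that lowers receptor levels, had 15.1 ± 0.043 CPM in the knockdown and 7.89 ± 0.427 CPM in the control (SD, n = 3 each; log2 0.94 ± 0.109 SE). PTPRK, a phosphatase that acts on EGFR, reached 357.9 ± 3.95 CPM, against 217 ± 1.38 CPM in the control (0.72 ± 0.026 SE). RNF41, a ubiquitin ligase for ERBB3, rose by 0.51 ± 0.055 SE, in the same direction as ERBB3. HGS, which sorts ubiquitinated receptors to lysosomes, fell by 0.27 on the log2 scale. With upper-quartile scaling 3 genes of this list were lower in place of 6. DESeq2 called 7 of the list higher and 4 lower, with 3149 higher and 3555 lower among all 17746 genes it tested. With limma on log2(FPKM + 1) 7 were also higher and 4 lower, against 4203 and 3482 of all 15374 genes. The larger share called in this list thus depended on the method.

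In the adaptors and the RAS-ERK cascade, 8 of 20 genes rose, 4 fell and 8 missed the threshold (median 0.059), near the 54.2% called among all genes tested. The adaptor SHC1 (0.34 ± 0.033 SE) and RASA1, which switches RAS off (0.39 ± 0.043 SE), rose. The kinases ARAF (−0.57 ± 0.053 SE) and MAP2K1 (−0.48 ± 0.034 SE) fell, MAP2K1 having 129 ± 3.77 CPM in the knockdown and 180.1 ± 8.47 CPM in the control (SD, n = 3 each). In the PI3K-AKT, PLCG1 and STAT arms, 6 of 14 tested genes rose, 5 fell and 3 missed the threshold (median 0.086), where 26.9% of all genes were called higher and 27.4% lower. STAT5A had 29.9 ± 1.37 CPM in the knockdown and 12.97 ± 0.402 CPM in the control (1.204 ± 0.083 SE), MTOR (0.43 ± 0.032 SE) and AKT1 (0.42 ± 0.047 SE) rose, and STAT3 fell by 0.29 on the log2 scale.

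The genes that ERK activity induces were the most one-sided of these lists by count. Among 20 genes, 15 fell, 3 rose and 2 missed the threshold, with a median of −0.237 against 0.002 over all genes. Over all genes tested 27.4% were called lower and 54.2% called at all. IER3, an ERK-induced survival factor, fell to 219 ± 2.27 CPM in the knockdown, against 449 ± 14.7 CPM in the control (SD, n = 3 each; log2 −1.04 ± 0.027 SE). PHLDA1 (−0.72 ± 0.023 SE), the ERK phosphatase DUSP5 (−0.76 ± 0.032 SE) and the AP-1 subunit FOSL1 (−0.36 ± 0.026 SE) fell too. All 4 had an adjusted p of 2.98e-20 or less in edgeR. The 3 genes that rose, named after their values were seen, went the other way. They were SPRY1 (0.91 ± 0.153 SE, adjusted p = 5.13e-07), ETV5 (0.34 ± 0.050 SE, adjusted p = 1.22e-08) and DUSP6 (0.18 ± 0.043 SE, adjusted p = 0.000222). Immediate early and ERK feedback genes were already known to be mostly lower in these libraries when this list was written, so its direction is no independent evidence. No protein, shedding or phosphorylation was measured.

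**Figure D4:**
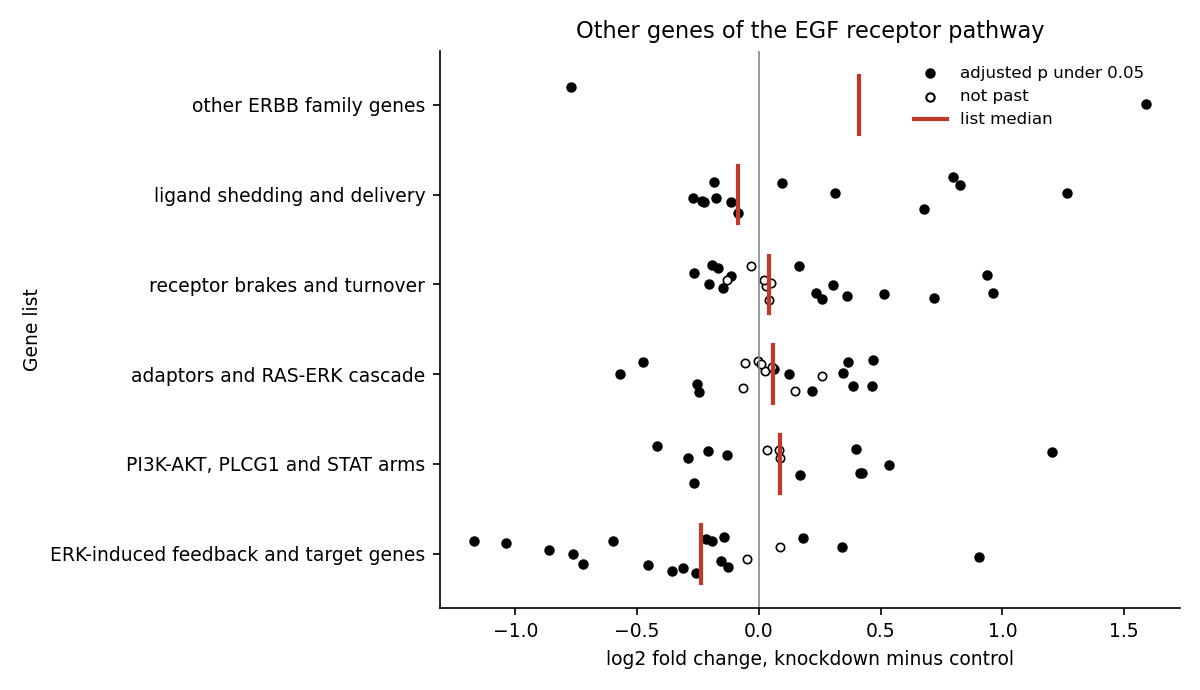
Log2 fold change, knockdown minus control, of every tested gene in the 6 lists of other pathway genes, with 1 point per gene, filled where the adjusted p was under 0.05; the red bar is the list median and the grey line the median of all genes. The ERK-induced genes lie mostly to the left, with a median of −0.237, and the other lists spread to both sides.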

How the data were processed

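The deposited files give each gene's raw counts and its FPKM, in 3 knockdown and 3 control columns each. The submitters' processing notes name Bowtie and the build GRCh38.p13, with no role. The sources used here do not give the counter, the annotation release, the strandedness or any filter. The deposited FPKM equal the counts divided by the library total and by 1 length per gene, within 8.83e-05 on the log2 scale over 10061 genes. Columns carry other names than the samples and were matched by prefix and replicate number.

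The count test was edgeR 4.0.16 (R 4.3.3) with filterByExpr (minimum count 10), TMM factors (0.987 to 1.013) and the robust quasi-likelihood fit on group alone. Benjamini-Hochberg adjustment ran over all genes tested, and SE and 95% intervals come from the same fit. P-values measure the spread between libraries, which may be technical. Libraries of a group differed by 1.86 to 2.79 times Poisson noise and were counted separately.

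The members and lists were chosen with earlier results of these data known. Named are the 10 members, DAZAP1, the other ERBB family genes, up to 4 genes with the smallest adjusted p per list, genes that overlap a member, neighbours of the chromosome 4 ligands, nearest profiles, and markers. ADAM9, ADAM12, ADAM15, SPRY1, ETV5 and DUSP6 were added after their values were seen. Alternatives were DESeq2 1.42.0, 3 other scalings, 2 other filters, limma 3.58.1 (voom with sample weights, and log2(FPKM + 1) or log2(FPKM + 0.1)), a block for the replicate number, leaving out 1 library at a time, and levels per length from TMM-scaled counts. Promoter windows are from RefSeq, GRCh38.p14.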

Additional observations from a re-analysis of the deposited data

How the results depend on the processing

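ERBB2, ERBB3, EREG, ERRFI1, HBEGF and TGFA kept their direction and stayed past the threshold under all 17 alternatives, EREG between 0.959 and 1.049 and TGFA between −0.63 and −0.54 on the log2 scale. EGFR, which did not pass, did so with upper-quartile scaling (0.089), library size alone (0.076), a stricter filter (0.048), limma voom (0.039), log2(FPKM + 1) (0.076), log2(FPKM + 0.1) (0.076) and FPKM of at least 1 (0.076). AREG lost its call with DESeq2 (−0.14), upper-quartile scaling (−0.084), library size alone (−0.097) and no filter (−0.131), and was between −0.153 and −0.117 with 1 library left out. BTC lost it with DESeq2 (0.74) and with log2(FPKM + 0.1) (0.696), and was between 0.483 and 1.01 with 1 library left out. EPGN was between −0.098 and 0.682 with 1 library left out, changing sign without knockdown replicate 1, control replicate 1 or control replicate 3, and it never passed in the 15 alternatives that tested it. BTC was tested in 16.

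The calls in the brake and turnover list fell to 3 lower genes with upper-quartile scaling, and 0 genes rose among the other ERBB family genes with the stricter filter or FPKM of at least 1, which do not test EGF. With the length of the GENCODE transcript that has the longest coding sequence, summed receptor levels were 218.6 in the knockdown and 203.0 in the control. In the same order, EGFR shares were 90.8% and 92.8%, summed ligand levels 255.4 and 309.5, and EREG shares 10.7% and 4.31%. EREG to AREG ratios were 0.634 and 0.289. HBEGF shares were 32.01% and 31.94%, so its lower share in the knockdown was no longer seen.

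Knockdown and control libraries of the same number did not deviate together (r of 0.003, −0.0008 and −0.006 for numbers 1 to 3), and none correlated best with its own number. With the replicate number as a block 8307 genes were called in place of 8339, 8246 of them in both, and EREG stayed at 1.00 and AREG at −0.133. Depth limits BTC, EPGN and EGF.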

Other observations

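The genes whose profile over the 6 libraries lay nearest to that of EREG, among 10629 others with a mean of at least 5 CPM, were LINC01232 (17.7 CPM in the knockdown and 8.95 CPM in the control), the adhesion adaptor TNS3 (294.4 and 151 CPM) and the interferon-induced antiviral gene MX1 (79.8 and 40.9 CPM). Their log2 fold changes were 0.98, 0.96 and 0.96, and their distances from EREG on the centred log2 CPM scale 0.058, 0.072 and 0.072. Nearest to EGFR were the chromatin remodelling subunit ARID1A (114.5 and 112.3 CPM), IVNS1ABP (107 and 104.5 CPM) and the ubiquitin-conjugating enzyme UBE2K (310.5 and 299 CPM), at distances of 0.030, 0.030 and 0.033. These are descriptions over 6 libraries in 2 groups.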
